A study of Drosophila melanogaster with 10 samples.

Results

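The genes described here encode structural proteins of the insect cuticle: the Cpr genes, the Ccp84A cluster, the Lcp genes numbered Lcp1 to Lcp4 and Lcp9, and the Tweedle genes. They were chosen by symbol, and the Lcp65A genes were left out. The rule named 107 of the 13995 genes in the tables, and 65 of these were above 1 FPKM in at least 1 library. FPKM scales the fragments of a gene by transcript length and by the mapped total of the library, so levels can be compared between genes. The lowest deposited value was 1, which is a floor, and a gene at that value is written as listed at 1.

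RNA was sequenced from whole male larvae of Drosophila melanogaster in the third instar, raised at 25 °C, with 2 libraries for each of 5 genotypes. The control was the stock y w, and all other genotypes carried the y w chromosome with atf3[76], an allele of the stress-response transcription factor Atf3. One group had atf3[76] alone. The 3 others added a single copy of a further allele, which was dfoxo[25J13] (foxo/+ below), rel[E20] (rel/+) or atf3[A] (atf3[A]/+). The labels give no molecular lesion for any allele and do not say whether both libraries of a genotype stem from independent cultures. The p-values therefore reflect the spread between these samples alone, and that spread may be technical. Values of a genotype are given for replicate 1 and then replicate 2.

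The larval cuticle is secreted by the epidermis and consists of chitin fibres embedded in protein. Most Cpr and Lcp proteins, and those of the Ccp84A cluster, share the Rebers-Riddiford consensus, a chitin-binding domain. Tweedle proteins belong to a separate family, in which dominant alleles of TwdlD make the larva short and stout. Each larval stage and body region uses its own set of cuticle genes, which are switched on and off in waves between molts under control of the molting hormone ecdysone.

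The libraries were not alike in quality or in markers of larval age. Well expressed genes (median elsewhere of 10 FPKM or more) were listed at 1 most often in replicate 1 of y w (3.84%) and of atf3[76] (4.54%), and less often in the remaining 8 libraries (0.136% to 1.27%). The salivary glue genes of the Sgs group and Fbp1, a fat body gene, are induced by ecdysone late in the third instar. The summed FPKM of 11 glue genes was 3153 and 1189 in y w, 2053 and 2966 in atf3[76], 4820.1 and 1866 in foxo/+, 3404 and 8409 in rel/+, and 6999 and 2704 in atf3[A]/+. Fbp1 stood at 148 and 44.5 FPKM for y w, 175 and 96.5 in atf3[76], 377 and 106 in foxo/+, 159 and 603 in rel/+, and 865 and 156 in atf3[A]/+. The same 3 libraries, foxo/+ replicate 1, rel/+ replicate 2 and atf3[A]/+ replicate 1, held the 3 highest values of both, and y w replicate 2 the lowest. Sgs3, Sgs4, Sgs5, Sgs7, Sgs8 and Eig71Ee were each higher in these libraries than in the other replicate of the genotype. The glue genes ng1, ng2 and ng3 were lower there, with ng1 at 131 and 233 FPKM in foxo/+, 313 and 175 in rel/+, and 71.9 and 185 in atf3[A]/+. Sgs1 was at 60.9 and 66.9 FPKM in atf3[A]/+, and ng4 was near the floor. The part of these differences in the results below was not tested.

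The 5 Lcp genes were the most abundant of the group. Lcp1 to Lcp4, which encode the main cuticle proteins of the third instar, lie side by side on 2R (dm3, 4318138 to 4325908), and Lcp9 lies farther along the arm (20667557 to 20667892). Their means over the 10 libraries were 2221, 1288, 5866, 3511 and 839 FPKM in that order. Together the 5 genes took 2.62% to 5.76% of all FPKM in a library, while the 65 genes together took 3.26% to 7.34%.

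Lcp3 was at 6621 and 7297 FPKM for y w, 5362 and 6201 in atf3[76], 4839 and 6488 in foxo/+, 4233 and 6113 in rel/+, and 5114 and 6391 in atf3[A]/+. All 8 libraries with atf3[76] lay below both y w libraries, by small amounts: the log2 difference against y w ran from −0.27 in atf3[76] to −0.45 ± 0.24 (SE) in rel/+ (limma, adjusted p = 0.246). Lcp4 held 3458 and 3884 FPKM for y w and between 2122 and 4247 in the others, so its groups overlapped.

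Lcp1 and Lcp2 differed widely between libraries of the same genotype. Lcp1 stood at 2437 and 447 FPKM for y w, 1689 and 1719 in atf3[76], 2347 and 1915 in foxo/+, 1113 and 3796 in rel/+, and 4571 and 2174 in atf3[A]/+. Lcp2, its neighbour, had 2545 and 431 FPKM for y w, 1230 and 1321 in atf3[76], 1118 and 1095 in foxo/+, 615 and 1701 in rel/+, and 1709 and 1120.1 in atf3[A]/+. In y w replicate 2 both genes were at their lowest, in the library that also had the lowest summed FPKM of glue genes. The interval of the difference between atf3[A]/+ and y w ran from −0.46 to 3.64 on the log2 scale for Lcp1 (95%, limma), so both no difference and a large one lie within it.

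Lcp9 differed from the 4 clustered genes. It was at 849 and 1260 FPKM for y w, 516 and 1552 in atf3[76], 319 and 680.4 in foxo/+, 274 and 328 in rel/+, and 675 and 1938 in atf3[A]/+. Both foxo/+ and both rel/+ libraries lay below both y w libraries, and the rel/+ libraries also lay below both of atf3[76]. The log2 difference of rel/+ against y w was −1.78 ± 0.69, short of the threshold (limma, adjusted p = 0.187).

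**Figure D1:**
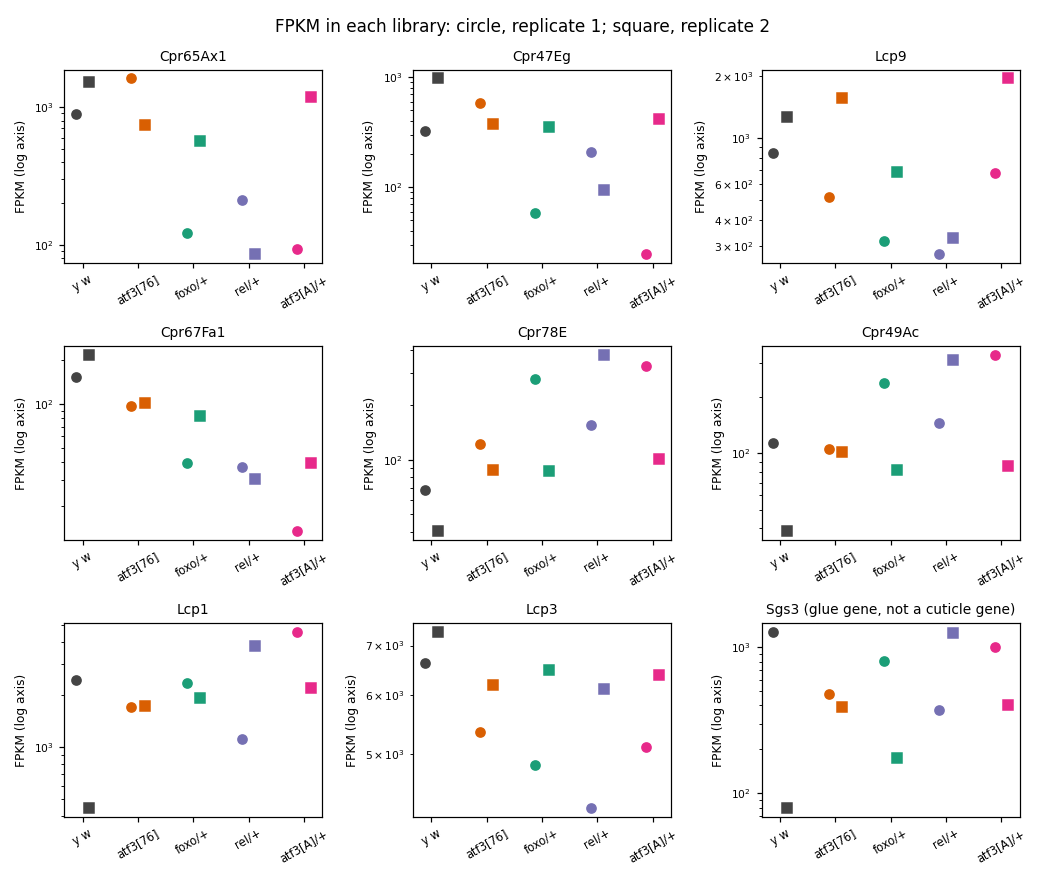
FPKM on a log axis in each library for 8 cuticle protein genes and the glue gene Sgs3, by genotype, with circles for replicate 1 and squares for replicate 2. In Cpr65Ax1 and Cpr47Eg the lowest 3 points are foxo/+ replicate 1, rel/+ replicate 2 and atf3[A]/+ replicate 1, and in Cpr78E and Cpr49Ac these are the highest 3.

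Among the Cpr genes, the tandem copies Cpr65Ax1 and Cpr65Ax2 had the highest mean level and differed widely between libraries. They lie on 3L (dm3, 6140630 to 6141084 and 6143501 to 6143955). The deposited values of the pair were identical in all 10 libraries, so they are 1 measurement and the split of reads between them is not known. The gene counts, medians, sums and shares of FPKM given here nevertheless include both genes. Each stood at 889 and 1513 FPKM for y w, 1618 and 746 in atf3[76], 121 and 568 in foxo/+, 212 and 85.2 in rel/+, and 93.7 and 1190.0 in atf3[A]/+. All foxo/+ and rel/+ values were below all 4 values of y w and atf3[76], while the atf3[A]/+ libraries lay far apart, with replicate 2 within the range of those 4. The log2 difference of rel/+ was −3.10 ± 1.25 against y w (limma, adjusted p = 0.191) and −3.02 ± 1.25 against atf3[76] (limma, adjusted p = 0.485). Less RNA per epidermal cell and fewer epidermal cells in the larva cannot be told apart in such bulk samples, here or for any gene below.

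Cpr47Eg followed a like course on another chromosome (2R, 7165460 to 7165946). It had 324 and 976 FPKM for y w, 579 and 375 in atf3[76], 58.4 and 353 in foxo/+, 208 and 94.2 in rel/+, and 24.6 and 419 in atf3[A]/+. Its replicates differed by a log2 value of −4.04 (replicate 1 minus replicate 2) within atf3[A]/+ and −2.57 within foxo/+. Its SD between libraries of a genotype was 1.65 on the log2(FPKM + 1) scale, higher than in 99.0% of the genes tested, and the log2 difference of atf3[A]/+ from y w of −2.44 ± 1.40 did not pass the test (limma, adjusted p = 0.554). Cpr47Ec (2R, 7146821 to 7147344) had 265 and 577 FPKM for y w, 229 and 368 in atf3[76], 137 and 324 in foxo/+, 166 and 149 in rel/+, and 130.3 and 289.7 in atf3[A]/+.

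Cpr78E (3L, 21659553 to 21660080) and Cpr49Ac (2R, 8274471 to 8277562) took the opposite course. Cpr78E was at 68.3 and 40.5 FPKM for y w, 122 and 87.4 in atf3[76], 278 and 86.7 in foxo/+, 155 and 375 in rel/+, and 329 and 101 in atf3[A]/+. Every library with atf3[76] lay above both y w libraries, and the log2 difference was largest in rel/+, at 2.18 ± 0.77 (limma, adjusted p = 0.179). Cpr49Ac stood at 114 and 38.7 FPKM for y w, 105 and 102 in atf3[76], 235 and 81.5 in foxo/+, 146 and 311 in rel/+, and 331 and 85.9 in atf3[A]/+. Only the rel/+ libraries were both above both y w libraries, with a log2 difference of 1.67 ± 0.83 (limma, adjusted p = 0.226).

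A gene of the same row can follow the other pattern. Cpr49Af lies in the same row of Cpr49A genes as Cpr49Ac (2R, 8293509 to 8293948) and was highest in y w, at 172 and 215 FPKM, against 113 and 130.4 in atf3[76], 62.0 and 116 in foxo/+, 93.7 and 80.2 in rel/+, and 91.8 and 109 in atf3[A]/+. All 8 libraries with atf3[76] lay below both of y w. On 3L the tandem genes Cpr67Fa1 (10883096 to 10883800) and Cpr67Fa2 (10884842 to 10885616) also had their highest values in y w. Cpr67Fa1 was at 153 and 215 FPKM for y w, 97.2 and 101 in atf3[76], 39.5 and 82.6 in foxo/+, 37.1 and 30.4 in rel/+, and 13.5 and 39.4 in atf3[A]/+. These groups did not overlap with y w, and the 6 libraries of foxo/+, rel/+ and atf3[A]/+ lay below all 4 of y w and atf3[76]. The log2 difference from y w was −2.91 ± 0.52 in atf3[A]/+ (limma, adjusted p = 0.118) and −2.40 ± 0.52 in rel/+ (limma, adjusted p = 0.128), and in atf3[A]/+ it was −2.05 ± 0.52 from atf3[76] (limma, adjusted p = 0.390). Cpr67Fa2 had 94.2 and 123 FPKM in the control and 15.3 and 54.4 in atf3[A]/+, and Cpr67Fb, the third gene of the row, stayed under 3 FPKM in every library.

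**Figure D2:**
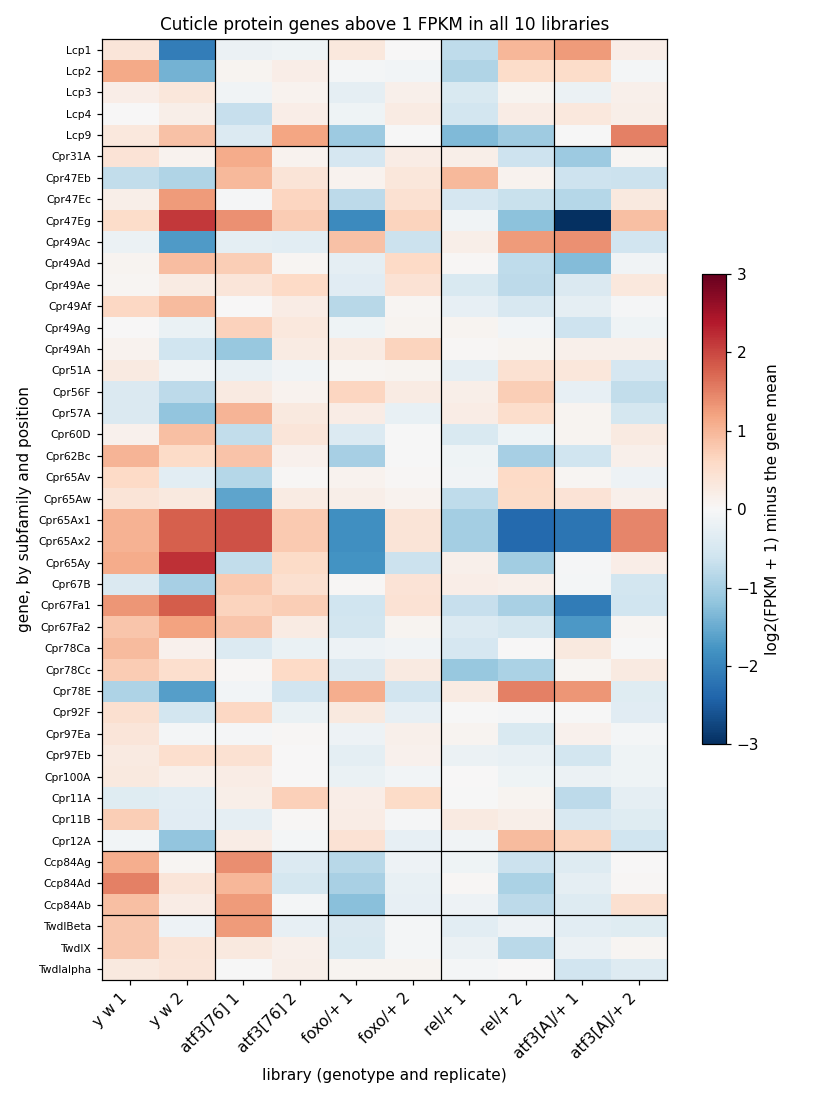
Log2(FPKM + 1) minus the mean of the gene over the 10 libraries, for the 44 cuticle protein genes above 1 FPKM in all 10 libraries, ordered by subfamily and position, with colour limits at −3 and 3. Red is above the gene's mean and blue below. Cpr47Eg, Cpr65Ax1 and Cpr65Ax2 are lowest where Cpr49Ac and Cpr78E are highest.

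Other genes lie in the Cpr65A row on 3L (6124412 to 6154689). Cpr65Ay (6151174 to 6151730) was at 20.4 and 44.4 FPKM for y w, 4.96 and 13.7 in atf3[76], 1.86 and 5.29 in foxo/+, 9.92 and 3.78 in rel/+, and 8.69 and 10.3 in atf3[A]/+, and all 8 libraries with atf3[76] were below both of y w. Its log2 difference was −2.88 ± 0.64 in foxo/+ (limma, adjusted p = 0.179). Cpr65Au (6124412 to 6125209) had 17.5 and 11.4 FPKM for y w and between 1 and 7.05 in the 8 others, where the value listed at 1 was atf3[76] replicate 1. That library was also the lowest for Cpr65Aw, at 12.9 FPKM against 23.3 to 60.2 in the other 9, and for Cpr65Av, at 19.99 against 29.2 to 56.3. It is 1 of the 2 libraries in which expressed genes were most often listed at 1. Among the Lcp65A genes that lie in the same row and are not counted here, Lcp65Ag1 had 408 and 1498 FPKM for y w, 1014 and 658 in atf3[76], 39.0 and 358 in foxo/+, 363 and 144 in rel/+, and 46.5 and 875 in atf3[A]/+.

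The next 5 Cpr genes are described together because both atf3[76] libraries lay above those of y w and atf3[A]/+. They were picked for these values, none passed the test, and the grouping is a description. They are not the only such genes: the same held for Cpr49Ag, Cpr47Ee, Cpr49Ae and TwdlT. Cpr49Ag was at 39.7 and 34.1 FPKM for y w, 63.9 and 48.8 in atf3[76], and 25.0 and 35.8 in atf3[A]/+. Cpr49Ae was low. Cpr47Ee and TwdlT were listed at 1 in the y w and atf3[A]/+ libraries. In atf3[76] they stood at 3.31 and 1.61 FPKM and at 1.48 and 1.002 FPKM, so TwdlT replicate 2 was barely above the floor. Among all genes, both atf3[76] libraries lay above both of y w in 15.9%, and both atf3[A]/+ libraries below both of atf3[76] in 23.9%. The share with both at once was not counted. Cpr47Eb (2R, 7142673 to 7143488) was at 35.5 and 31.4 FPKM for y w, 119 and 78.7 in atf3[76], 64.8 and 75.3 in foxo/+, 118 and 64.5 in rel/+, and 38.6 and 37.9 in atf3[A]/+. All 6 libraries of the first 3 mutant genotypes were above all 4 of y w and atf3[A]/+. The log2 difference from y w was 1.51 ± 0.31 in atf3[76] (limma, adjusted p = 0.233), and that of atf3[A]/+ from atf3[76] was −1.31 ± 0.31 (limma, adjusted p = 0.378). In atf3[A]/+ against y w it was 0.19, with an interval of −0.55 to 0.93 (95%).

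Cpr67B (3L, 9397894 to 9399280) had 57.5 and 38.6 FPKM for y w, 136 and 109 in atf3[76], 79.7 and 103 in foxo/+, 89.1 and 86.7 in rel/+, and 74.2 and 52.8 in atf3[A]/+. Its log2 difference between atf3[76] and y w, 1.35 ± 0.27, had the lowest adjusted p of the 65 genes in that comparison (limma, adjusted p = 0.205). Cpr57A (2R, 16436757 to 16437597), which overlaps Obp57d and is therefore uncertain, was at 66.0 and 38.8 FPKM for y w, 183 and 110.1 in atf3[76], 104 and 76.0 in foxo/+, 104 and 128 in rel/+, and 94.2 and 61.4 in atf3[A]/+. Cpr56F (2R, 16175860 to 16179448), which overlaps CkIIbeta2, stood at 5.52 and 4.16 FPKM for y w, 9.72 and 8.59 in atf3[76], 12.8 and 9.56 in foxo/+, 9.05 and 13.8 in rel/+, and 6.49 and 4.30 in atf3[A]/+. In each of these genes both atf3[76] libraries were above both y w and both atf3[A]/+ libraries. Cpr11A on X (12381005 to 12383483) was alike, with 47.6 and 49.5 FPKM for y w, 69.4 and 101 in atf3[76], 70.8 and 92.0 in foxo/+, 61.0 and 64.9 in rel/+, and 35.2 and 51.2 in atf3[A]/+. Cpr49Ah (2R, 8301466 to 8302675), named for its size in foxo/+ against atf3[76], had 3.62 and 10.99 FPKM in atf3[76] and 10.9 and 15.1 in foxo/+, which overlap.

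Of the 70 Cpr genes named by the rule, 25 were listed at 1 in every library, and 45 were kept. Of those kept, 26 had a mean of at least 10 FPKM and 8 a mean of at least 100. Cpr100A (3R, 26693244 to 26694908) kept within a narrow range, at 18.5 and 16.5 FPKM for y w, 17.6 and 15.0 in atf3[76], and 12.8 to 14.8 in the other genotypes. Its libraries of foxo/+, rel/+ and atf3[A]/+ lay below all those of y w and atf3[76], by small amounts. The log2 difference of atf3[A]/+ from y w was −0.37 ± 0.15 (limma, adjusted p = 0.426). Just inside the rule, the kept Cpr genes Cpr65Ea and Cpr50Cb were above 1 in 1 library each, at 1.35 and 1.56 FPKM. Just outside it, the 25 Cpr genes listed at 1 include all 3 of the Cpr72E row and 3 of the 4 Cpr64A genes.

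The Ccp84A genes form a row of 7 on 3R (2512449 to 2530625), and Ccp84Aa, Ccp84Ab, Ccp84Ad and Ccp84Ag were kept while the 3 others were listed at 1 throughout. They were low, with means of 3.66 to 4.81 FPKM. Their summed FPKM was 36.2 and 16.3 in y w, 36.8 and 11.2 in atf3[76], 4.74 and 10.5 in foxo/+, 12.5 and 6.39 in rel/+, and 10.4 and 18.3 in atf3[A]/+. Both foxo/+ and both rel/+ libraries lay below both y w libraries for each of the 4 genes, while replicate 1 of atf3[76] was as high as y w. The log2 differences of foxo/+ against y w ran from −1.55 ± 0.63 in Ccp84Ad to −1.06 ± 0.62 in Ccp84Ag, and the lowest adjusted p was 0.250 (limma). The libraries with the highest sums, replicate 1 of y w and of atf3[76], are also those in which expressed genes were most often listed at 1.

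**Figure D3:**
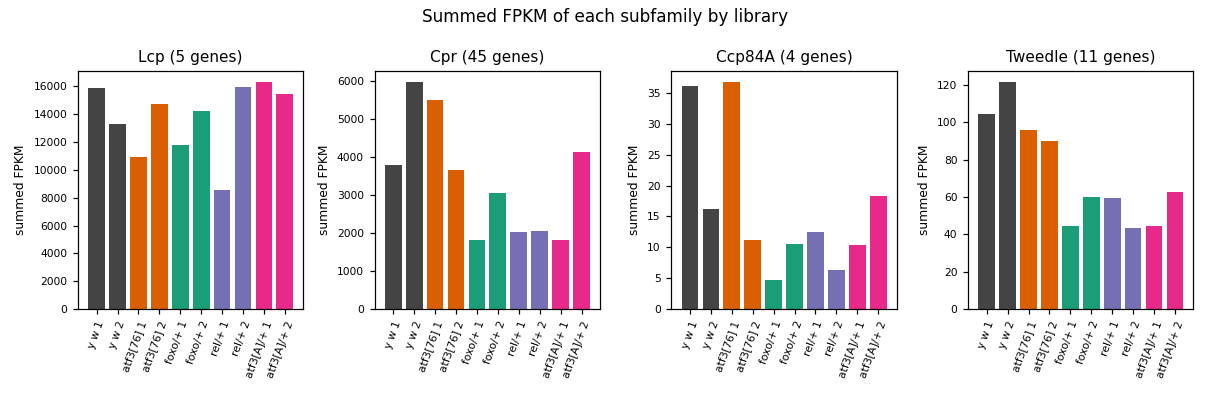
Summed FPKM of the kept genes of each subfamily in each library, as bars coloured by genotype, on a linear axis from 0 with its own scale for each subfamily. The Ccp84A sum is highest in y w replicate 1 and atf3[76] replicate 1, at 36.2 and 36.8, and the Tweedle sum is at 90.1 or more in y w and atf3[76] and at 62.7 or less in the other 6 libraries.

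Of the 25 Tweedle genes, 11 were kept and 14 were listed at 1 in all libraries. TwdlX on X (16625123 to 16626663) was the highest, at 50.9 and 38.0 FPKM for y w, 35.4 and 31.9 in atf3[76], 20.9 and 27.5 in foxo/+, 25.5 and 16.0 in rel/+, and 25.3 and 29.99 in atf3[A]/+. All 8 libraries with atf3[76] were below both of y w, with a log2 difference of −1.08 ± 0.27 in rel/+ (limma, adjusted p = 0.150). Twdlalpha, in the same row of Tweedle genes (16636923 to 16638398), had 9.51 and 10.004 FPKM for y w and 4.79 and 5.55 in atf3[A]/+. Its log2 difference there was −0.80 ± 0.14 (limma, adjusted p = 0.116), while the 6 other libraries ran from 7.21 to 8.66. Both genes overlap CG9634, so their values are uncertain.

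Within the row of 12 Tweedle genes on 3R (22444844 to 22466778), TwdlP and TwdlO stood out. TwdlO (22451729 to 22452419) was at 8.74 and 26.4 FPKM for y w and 10.3 and 21.6 in atf3[76], was listed at 1 in both libraries of foxo/+ and both of rel/+, and was at 1 and 9.14 in atf3[A]/+. Its difference measures no fold where a genotype is listed at 1, and the authors' deposited table, which gives a fold change of −17.6 for both foxo/+ and rel/+ against y w, takes the floor as a value. The limma test of foxo/+ against y w did not pass (adjusted p = 0.228), nor did that of rel/+ (adjusted p = 0.152). TwdlP (22446329 to 22447082) had 17.6 and 32.0 FPKM for y w, 19.5 and 15.4 in atf3[76], 1 and 8.79 in foxo/+, 11.9 and 3.34 in rel/+, and 1 and 7.41 in atf3[A]/+. For both genes the libraries of y w and atf3[76] were above those of foxo/+ and rel/+ without overlap. TwdlD, the gene of the short larvae, was above the floor in 1 library alone, at 1.57 FPKM. TwdlBeta (2R, 7750041 to 7750753) was highest in the same libraries as the Ccp84A sum, with 10.6 and 15.1 FPKM in replicate 1 of y w and of atf3[76]. It was at 3.96 to 5.35 in the other 8 libraries. Unlike for the Ccp84A genes, its foxo/+ and rel/+ libraries were not all below y w, as y w replicate 2 was at 4.95.

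The 65 genes were tested in 7 comparisons by limma on log2(FPKM + 1), in 1 model of all 5 genotypes over 11558 genes, and 0 of them passed an adjusted p of 0.05 in any. The comparisons with y w share the y w libraries, and those with atf3[76] share its libraries, so they are not independent. Over all genes tested, the median log2 difference from y w was 0.095 for atf3[76] and 0 for atf3[A]/+, but it was 0.31 for foxo/+ and 0.40 for rel/+. The values of the 65 genes are to be read against those shifts.

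In atf3[76] against y w, which asks what the atf3 mutation does, 0 of the 65 genes passed, where 0.303% of all genes did. An unadjusted p under 0.05 was found for 10 of them, 7 higher and 3 lower, beside 6.26% of all genes. Both atf3[76] libraries lay above both y w libraries in 12 genes (15.9% of all genes did) and below both in 10 (5.44%). The median over the 65 was −0.10. The higher genes include Cpr47Eb, Cpr57A and Cpr67B, and the lower ones Cpr65Au and Cpr65Ay.

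In foxo/+ against y w, 0 passed (0.389% of all genes) and 17 had an unadjusted p under 0.05, 5 higher and 12 lower (18.6% of all genes). Libraries of foxo/+ lay below both y w libraries in 26 of the 65 genes, where 9.07% of all genes did, and above both in 12, where 47.0% did. Their median was −0.18. In rel/+ against y w, 0 passed (0.363%) and 22 had an unadjusted p under 0.05, 8 higher and 14 lower (25.6%). Here 28 genes lay below without overlap (8.57% of all genes) and 12 above (55.6%), and the median was −0.29. The lowest adjusted p of any of the 65 genes was that of Cpr78Cc (3L, 21293687 to 21294273), at 68.7 and 56.8 FPKM for y w, 41.3 and 60.7 in atf3[76] and 17.7 and 20.4 in rel/+, with a log2 difference of −1.67 ± 0.29 from y w (limma, adjusted p = 0.0814). It falls outside the rule for named genes and was chosen after its values were seen.

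In atf3[A]/+ against y w, 0 passed (0.225%), and 11 had an unadjusted p under 0.05, 1 higher and 10 lower (11.2%). The higher gene, Cpr76Bc, was above 1 FPKM in atf3[A]/+ alone, at 1.46 and 1.63. It passed the filter only through that genotype and could not come out lower there. Both atf3[A]/+ libraries were below both of y w in 22 genes (16.9% of all genes) and above in 6 (17.5%), with a median of −0.28. The lower genes include Cpr67Fa1, Cpr67Fa2, TwdlX and Twdlalpha.

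**Figure D4:**
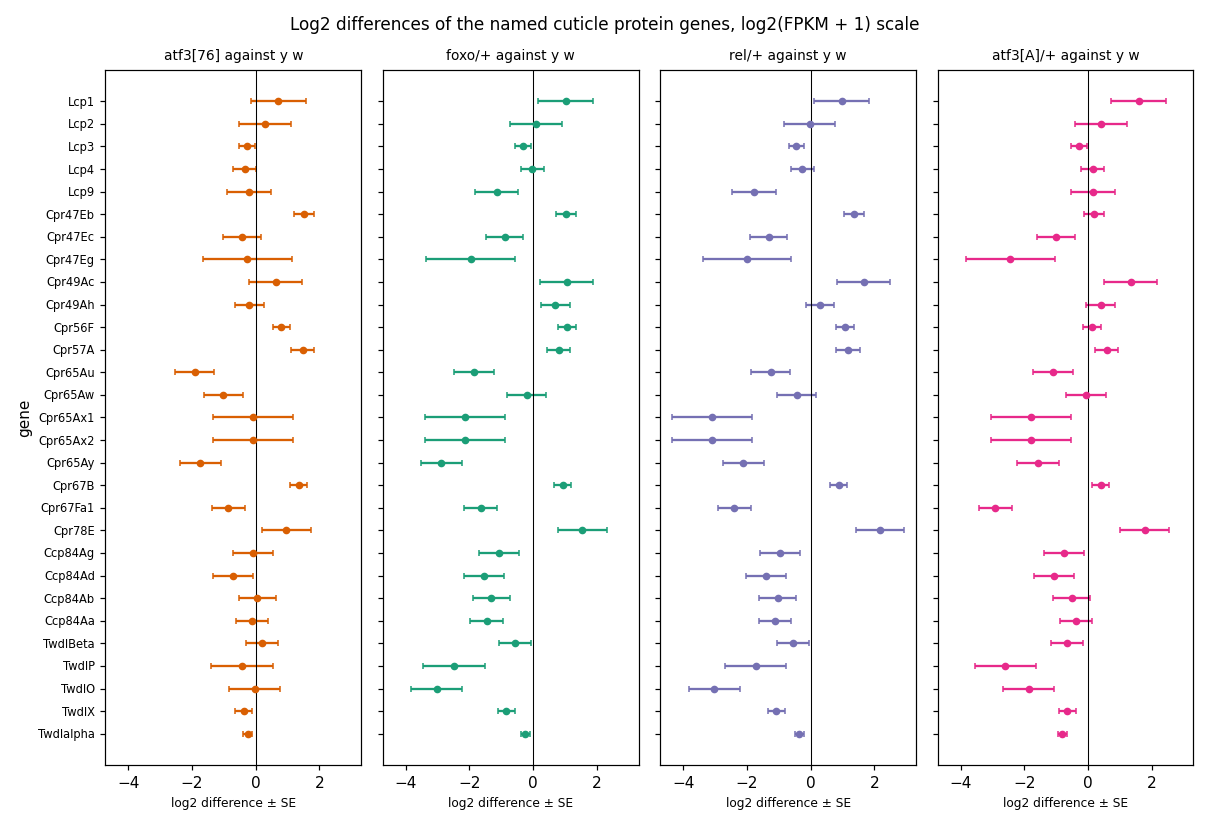
Log2 difference from y w with its SE (points and bars) for the 29 named cuticle protein genes in the 4 genotypes with atf3[76], from limma on log2(FPKM + 1) in a model of all 5 genotypes. None passes the threshold. Cpr47Eb, Cpr57A and Cpr67B lie near 1.4 in atf3[76] and nearer to 0 in atf3[A]/+, and Cpr65Ax1, Cpr47Eg and Lcp1 have wide bars.

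Against atf3[76] alone, the comparisons that ask what the added allele does, 0 of the 65 genes passed with foxo/+ (0.0519% of all genes), with rel/+ (0.0865%) or with atf3[A]/+ (0.0779%). An unadjusted p under 0.05 was found in 2 genes with foxo/+, Ccp84Aa and TwdlO, both lower (5.38% of all genes). There were 8 with rel/+ (7.41%), of which 7 were lower, and 11 with atf3[A]/+ (8.01%), of which 10 were lower. The exception with atf3[A]/+ was again Cpr76Bc, which passed the filter only through that genotype. Libraries of foxo/+ lay below both atf3[76] libraries in 18 genes (6.50% of all genes) and above in 4 (32.0%). For rel/+ these counts were 23 (5.55%) and 6 (44.5%), and for atf3[A]/+ 25 (23.9%) and 4 (8.88%). The medians over the 65 genes were −0.20, −0.20 and −0.28, where those over all genes were 0.16, 0.24 and −0.10. Cpr47Eb, Cpr57A, Cpr67B, Cpr56F, Cpr11A and Cpr49Ag were among the 10 lower genes with atf3[A]/+.

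The spread between libraries of a genotype was wide for these genes. The median SD on the log2 scale, pooled over the 5 genotypes, was 0.40 for the 65 genes and 0.28 for all genes tested. It was 0.80 for the Lcp genes, 0.70 for the Ccp84A genes, 0.37 for the Cpr genes and 0.28 for the Tweedle genes. Among the 65, 9 were in the 5% of genes with the widest spread, namely Cpr47Eg, Cpr65Ax1, Cpr65Ax2, TwdlP, TwdlO, Lcp1, Lcp2, Cpr49Ac and Cpr78E. Within foxo/+, replicate 1 minus replicate 2 was −2.22 for Cpr65Ax1 and 1.67 for Cpr78E, within atf3[A]/+ it was −3.65 and 1.69, and within rel/+ it was 1.31 and −1.27. In each of these genotypes, and in y w, the library with the lower Cpr65Ax1 and higher Cpr78E was also the one with more summed glue and Fbp1 RNA. The atf3[76] libraries did not follow this. There replicate 2 had the lower Cpr65Ax1 (746 against 1618 FPKM) and more glue RNA, but the lower Cpr78E (87.4 against 122) and less Fbp1 (96.5 against 175). Whether larval age accounts for the pattern was not tested.

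**Figure D5:**
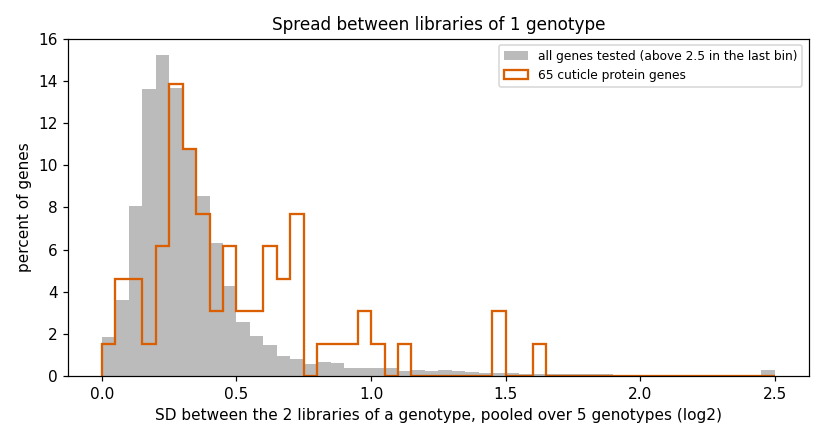
Percent of genes at each SD between the 2 libraries of a genotype (log2(FPKM + 1), pooled over 5 genotypes, bins of width 0.05), filled for the 11558 genes tested and outlined for the 65 cuticle protein genes. The last bin also holds all tested genes above 2.5. The outline has its median at 0.40 against 0.28, and its last steps are Cpr65Ax1 with Cpr65Ax2 and Cpr47Eg.

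Other genes of cuticle formation and markers of larval tissues were examined as lists chosen by function. Of 15 other cuticle protein genes tested, most of them Lcp65A genes, 0 passed in any comparison, and their median log2 difference from y w was −1.20 for foxo/+, −1.27 for rel/+ and −0.90 for atf3[A]/+, with 0.0061 for atf3[76]. Of 33 genes of chitin synthesis and turnover, 0 passed, with medians of 0.20, 0.16, −0.037 and 0.14 in the same order. Among them kkv, the chitin synthase of the epidermis, stood at 12.9 and 9.60 FPKM for y w and 9.66 to 16.8 in the others, so its groups overlapped. No gene passed among 7 apical matrix, 16 tanning, 22 ecdysone and molting, 11 glue, 6 larval serum, 7 tracheal and 10 muscle genes tested (0 of each in all 7 comparisons, limma, adjusted p of 0.05).

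Of 15 imaginal disc genes, dpp, a growth factor gene, passed against y w for foxo/+ and rel/+ (limma, adjusted p = 0.0319 and 0.0418). Its value was 1 in the y w and atf3[76] libraries and 3.605 and 3.10 FPKM in foxo/+ and 3.37 and 2.89 in rel/+, so the difference gives no fold. It was also above 1 in both atf3[A]/+ libraries, at 2.501 and 2.70 FPKM, where the test did not pass. Of 11 midgut genes, the lysozymes LysB, LysD and LysE fell in atf3[76] and atf3[A]/+ against y w and rose in foxo/+ and rel/+ against atf3[76], by log2 values of 4.47 or more in size (limma, adjusted p of 0.000698 or less). These are members of a multigene family, and the split of reads among them is uncertain. Disc genes were low. In y w replicate 2, wg, vg, Dll, eyg, ey, dac, en and dpp were listed at 1. In the same library ap, ci, nub and hh were at 4.47, 5.51, 2.91 and 2.07 FPKM, and eya, ptc and so at 1.46, 1.20 and 1.15. These low values do not settle whether every library held disc RNA. The tissue checks show RNA of gut, fat body and muscle in every library. The summed FPKM of the muscle list was 4040.4 and 4457 in y w and 2899 to 4354 in the others. The muscle genes Mhc, up and wupA were nevertheless listed at 1 in all 10 libraries, as were the disc genes sd and hth, so a value listed at 1 does not show that a gene is silent. Ddc, whose product makes dopamine for hardening the cuticle, was at 3.26 and 2.61 FPKM for y w, 10.9 and 10.2 in atf3[76], 22.7 and 10.9 in foxo/+, 16.6 and 29.1 in rel/+, and 31.3 and 6.84 in atf3[A]/+. Its 3 highest values were in the 3 libraries with the most glue RNA.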

How the data were processed

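The submitters' processing notes list TopHat 1.3.2, Cufflinks 1.1.0 and build dm3, without their roles. The annotation, the strand setting and any filter are not stated there. In the deposited data, the authors gave 4 tables of 14148 records with 1 FPKM value per gene and library, and a score, per the file headers a fold change against y w, which is quoted for 1 gene. The y w values were identical in the 4 tables. Records that shared a symbol (94 symbols) were collapsed to the one with the highest mean, which left 13995 genes.

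Genes above 1 FPKM in at least 1 of the 10 libraries (11558) were tested on log2(FPKM + 1) with limma 3.58.1 in R 4.3.3, in 1 model of the 5 genotypes, with Benjamini-Hochberg adjustment over all of them and a threshold of 0.05. The scale understates changes of low genes. The fit was tested on simulated data. The members, gene lists and tests were chosen with earlier results of these data known. Genes are named if among the 5 highest of a subfamily, past the threshold, or among the 3 largest differences in each direction of a comparison with at least 5 FPKM in the higher group; examples outside this rule were chosen after their values were seen. Read depth is unknown, so no counting interval is given. Because strand is not stated, the 7 kept genes that overlap another gene are uncertain. Alternatives were other pseudocounts, filters, scalings and variance models, a replicate block, a fit of 2 groups, and leaving out libraries. No sequence is printed, since no sequence of these genes was used here. Python 3.11.15 and matplotlib 3.10.9 drew the figures.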

Additional observations from a re-analysis of the deposited data

How the results depend on the processing

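The count of 0 cuticle protein genes past the threshold held under the alternatives in all 7 comparisons with 3 exceptions of 1 gene each. They were Cpr65Au in atf3[76] against y w without atf3[76] replicate 2 (log2 −2.92, limma, adjusted p = 0.0444), Cpr30F in rel/+ against atf3[76] without that library (1 gene, above 1 FPKM in atf3[76] replicate 1 alone), and Cpr76Bc in atf3[A]/+ against y w with no filter (1 gene). Leaving out each library in turn thus gave 0 to 1 genes, where an arm of 1 library is assumed to vary like the other groups. The medians over the 65 genes were below 0 in the full fits. For atf3[76] against y w the median of −0.102 moved to −0.208 at a mean of at least 5 FPKM, −0.247 after centring, 0 without y w replicate 1 and atf3[76] replicate 1, and −0.150 to 0.007 leaving out each library. For foxo/+ against y w, −0.179 moved to −0.082 with pseudocount 5, −0.343 at 5 FPKM, −0.514 after centring, −0.408 after quantile normalization, and −0.298 to −0.115 leaving out each library. For rel/+ against y w, −0.286 moved to −0.392 with pseudocount 0, −0.201 with pseudocount 5, −0.450 at 5 FPKM, −0.681 after centring, −0.505 after quantile normalization, and −0.380 to −0.179 leaving out each library. For atf3[A]/+ against y w, −0.282 moved to −0.150 with pseudocount 5, −0.171 without y w replicate 1 and atf3[76] replicate 1, and −0.395 to −0.171 leaving out each library. Against atf3[76], foxo/+ moved from −0.204 to −0.395 after centring, −0.341 after quantile normalization, −0.083 without the same 2 libraries, and −0.253 to −0.069 leaving out each library. For rel/+, −0.198 moved to −0.138 with pseudocount 5, −0.317 at 5 FPKM, −0.449 after centring, −0.422 after quantile normalization, and −0.292 to −0.189 leaving out each library. For atf3[A]/+, −0.277 moved to −0.187 with pseudocount 5, −0.129 after centring, −0.168 without the same 2 libraries, and −0.393 to −0.164 leaving out each library. Among differences of named genes, 7 reversed: Cpr65Aw in foxo/+ against atf3[76] (−0.096), Cpr65Au in rel/+ (−0.344) and in atf3[A]/+ (−0.186) against atf3[76], each without atf3[76] replicate 1 and without both libraries, and Cpr78E in foxo/+ against atf3[76] without foxo/+ replicate 1 (−0.252). Leaving out the other library of the same genotype gave 1.713, 1.664, 1.822 and 1.419 in that order. The cause was not tested. Replicate differences of the genotypes correlated at −0.233 to 0.442 across genes, highest between y w and atf3[76], and the labels do not say what the numbers mark, so whether they pair any libraries is not known. The replicate block gave 0 genes in each comparison. Depth is unknown, and values near the floor of 1 FPKM carry little information.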
